A study of Mus musculus with 8 samples.

Results

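The chromatin sites of METTL14 and METTL3 were compared in control mouse embryonic stem cells (ESCs), which are the pluripotent cells of the early embryo kept in culture. The members are the CUT&RUN peaks of the 4 control libraries: METTL14 in the cells named Mettl3 Control and METTL3 in the cells named Mettl14 Control, with 2 libraries each. They hold 7369 of the 13316 peaks in the 8 lists of the series. The METTL14 lists have 3129 and 3546 peaks and the METTL3 lists 353 and 341. The other 4 libraries are the CKO cells of the same lines, with 5947 peaks. All cells were of strain C57BL/6 and were grown with serum, LIF, the GSK3 inhibitor CHIR99021 and the MEK inhibitor PD0325901. METTL14 was bound with the rabbit antibody HPA038002 and METTL3 with the rabbit antibody ab195352. The labels do not say what CKO stands for, how the control cells were made, or whether replicate libraries stem from different cultures. A p-value over libraries therefore measures the spread between these libraries, and that spread may be technical. Effects of the antibody and of the cell line cannot be told apart, since both change together.

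METTL3 and METTL14 form the heterodimer that writes N6-methyladenosine (m6A) on RNA in the nucleus. METTL3 carries the catalytic site, and METTL14 supports the structure and helps to hold the RNA. The complex works on nascent transcripts and can be found on chromatin. In CUT&RUN an antibody brings micrococcal nuclease to a protein on chromatin, and the fragments cut free are sequenced. In ESCs the genes of developmental regulators such as the Hox clusters are known targets of Polycomb repressors, and their promoters are often rich in CpG.

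Of the 32851 transcription start windows searched (300 bases each, 250 before and 50 after a start site), 332 were overlapped by a peak of both METTL14 control libraries by at least 20 bases. None was overlapped in this way by both METTL3 control libraries. With the lists shortened to their first 341 peaks, 9 windows remained for METTL14, of which 7 belong to protein-coding genes. The windows of the 6 protein-coding genes whose peaks stood highest in the METTL14 lists are printed here, since start sites set the antibodies apart. Capitals mark the bases inside the peaks of both METTL14 libraries. Hoxd10 (chr2:74691641-74691940, plus strand), Hoxd11 (chr2:74682073-74682372, plus) and Hoxd9 (chr2:74697513-74697812, plus) encode homeodomain factors that pattern the limbs and the posterior trunk. Pou3f3 (chr1:42695518-42695817, plus) encodes a POU factor of the developing brain and kidney. Pcdh10 (chr3:45378148-45378447, plus) encodes a protocadherin, and Nr6a1 (chr2:38926412-38926711, minus) an orphan nuclear receptor that represses pluripotency genes during differentiation. Sequences are RefSeq's for GRCm38.p6, the assembly behind mm10, 5′ to 3′ on the gene's strand.
Hoxd10: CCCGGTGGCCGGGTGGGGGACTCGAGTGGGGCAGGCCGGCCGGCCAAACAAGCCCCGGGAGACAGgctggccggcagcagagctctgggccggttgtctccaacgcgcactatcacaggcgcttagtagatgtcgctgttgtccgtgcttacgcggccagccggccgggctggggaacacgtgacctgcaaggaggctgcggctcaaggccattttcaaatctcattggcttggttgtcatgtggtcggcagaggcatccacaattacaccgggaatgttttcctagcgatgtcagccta
Hoxd11: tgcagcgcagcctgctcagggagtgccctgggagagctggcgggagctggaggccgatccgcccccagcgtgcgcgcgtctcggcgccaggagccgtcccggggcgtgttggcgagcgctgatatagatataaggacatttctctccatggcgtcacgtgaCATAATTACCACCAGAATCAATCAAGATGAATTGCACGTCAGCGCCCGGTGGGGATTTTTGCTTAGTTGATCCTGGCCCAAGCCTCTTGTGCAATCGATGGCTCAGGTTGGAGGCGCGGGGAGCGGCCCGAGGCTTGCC
Pou3f3: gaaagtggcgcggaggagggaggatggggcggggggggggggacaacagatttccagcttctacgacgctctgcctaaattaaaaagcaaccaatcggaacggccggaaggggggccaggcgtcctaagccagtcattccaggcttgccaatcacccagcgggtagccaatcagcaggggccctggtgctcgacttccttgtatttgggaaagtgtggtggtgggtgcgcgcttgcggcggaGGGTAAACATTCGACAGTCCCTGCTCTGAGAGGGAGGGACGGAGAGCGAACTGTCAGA
Pcdh10: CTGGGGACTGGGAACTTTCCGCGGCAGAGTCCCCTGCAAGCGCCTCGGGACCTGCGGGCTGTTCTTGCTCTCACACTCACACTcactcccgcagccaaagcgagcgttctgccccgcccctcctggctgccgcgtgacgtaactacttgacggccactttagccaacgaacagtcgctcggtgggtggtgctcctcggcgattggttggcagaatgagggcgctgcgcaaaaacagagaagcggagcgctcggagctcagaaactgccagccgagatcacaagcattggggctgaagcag
Nr6a1: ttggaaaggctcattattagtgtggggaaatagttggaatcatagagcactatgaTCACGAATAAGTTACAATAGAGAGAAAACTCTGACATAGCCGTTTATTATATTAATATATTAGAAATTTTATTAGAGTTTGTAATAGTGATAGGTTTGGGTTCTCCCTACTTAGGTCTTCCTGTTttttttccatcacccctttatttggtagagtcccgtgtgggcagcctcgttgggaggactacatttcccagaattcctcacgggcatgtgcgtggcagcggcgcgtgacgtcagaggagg
Hoxd9: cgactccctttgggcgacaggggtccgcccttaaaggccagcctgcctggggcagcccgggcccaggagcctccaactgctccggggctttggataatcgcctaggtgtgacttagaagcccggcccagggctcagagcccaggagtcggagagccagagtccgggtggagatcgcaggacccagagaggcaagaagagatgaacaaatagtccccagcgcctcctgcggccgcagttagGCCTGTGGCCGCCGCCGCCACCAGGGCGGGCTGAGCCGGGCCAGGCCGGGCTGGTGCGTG

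The 6 windows hold between 10 CpG dinucleotides (Nr6a1) and 25 (Hoxd11), against a median of 13 over 17492 protein-coding genes with a window. The peaks of both libraries cover 6 CpGs in the Hoxd10 window, 8 in that of Hoxd11, 3 in Pou3f3, 5 in Pcdh10, 2 in Nr6a1 and 7 in Hoxd9. The Nr6a1 window stands apart with 42.3% G and C, whereas the other 5 lie between 60.3% (Pou3f3) and 68.3% (Hoxd9). The peak at the Hoxd10 start was at positions 99 and 94 of the 2 METTL14 lists, and the nearest METTL3 peak on the chromosome was 8951457 bp away. For Hoxd9 the positions were 280 and 178.

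Sites called with both antibodies were of another kind, mostly away from protein-coding genes. No nonspecific antibody was analysed, so whether both proteins bind at such sites was not tested. The microRNA gene Mir6236 is shown as an example, chosen after its calls were seen. Mir6236 (chr9:110281287-110281409) had a peak in all 4 control libraries, at positions 148 and 123 of the METTL14 lists and 102 and 116 of the METTL3 lists. Its mature RNA maps to chr9:110281353-110281371 on the plus strand and is shown with the seed (bases 2 to 8) in capitals.
mmu-miR-6236: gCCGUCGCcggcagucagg

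Because the METTL14 lists are about an order of magnitude longer, locations were compared both with full lists and with each list shortened to its first 341 peaks, the length of the shortest control list. The lists give no peak height, and what set the order of their peaks is not given in the sources used here. Over shared sites the order ran in parallel, with Spearman's rho of 0.741 over 1074 sites between the METTL14 libraries, 0.967 over 121 between the METTL3 libraries and 0.917 to 0.924 over 127 to 138 between antibodies. These values are across peaks, which are not independent. Depth per library is unknown, so the number of peaks cannot be read as the amount of protein on chromatin. METTL14 peaks were 149 bp wide (1 peak excepted) and METTL3 peaks 285 and 277 bp.

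At equal length METTL14 lay at gene boundaries more often than METTL3. A peak is at a boundary when it is within 2 kb of either end of a protein-coding gene. The share was 31.4% (107 of 341, 95% Wilson interval 26.7 to 36.5) and 31.1% (106 of 341, 26.4 to 36.2) in the METTL14 libraries. In the METTL3 libraries it was 9.38% (32 of 341, 6.73 to 12.9) and 7.92% (27 of 341, 5.50 to 11.3). The groups did not overlap, and the difference of 22.6 percentage points was far above the SD between libraries, 0.207 for METTL14 and 1.04 for METTL3 (n = 2 each). The exact two-sided permutation p was 0.333, the smallest that 2 against 2 libraries allow, so this design cannot reach 0.05. Intervals cover counting error only.

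The excess sat at start sites, with little at gene ends alone. Within 2 kb of an annotated start site were 23.5% and 23.2% of METTL14 peaks and 4.40% and 3.81% of METTL3 peaks. Within 2 kb of a gene end alone were 3.81% and 4.99% of METTL14 peaks and 3.23% in each METTL3 library. The start-site classes were 19.2 points apart and the gene-end classes 1.17 points (exact permutation p = 0.333 each). Start sites were known for 79.9% of protein-coding genes. A peak near both counts as a start site, and a gene can have several start sites but a single end, so the classes are not equal in reach.

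METTL3 peaks lay inside genes and away from them more often. Inside a protein-coding gene and over 2 kb from its ends were 19.4% and 22.9% of METTL14 peaks and 29.9% in both METTL3 libraries. Neither in nor within 2 kb of a protein-coding gene were 49.3% and 46.0% of METTL14 peaks and 60.7% and 62.2% of METTL3 peaks, a difference of -13.8 points (METTL14 minus METTL3, exact permutation p = 0.333), or -21.7 points on chromosomes 1 to 19 and X alone. Unplaced or unlocalised contigs are in this class. They held 18.8% and 16.4% of METTL14 peaks but 10.6% and 11.7% of METTL3 peaks. On placed chromosomes and clear of every annotated gene, noncoding ones included, were 25.5% and 24.6% of METTL14 peaks against 41.1% and 42.8% for METTL3.

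**Figure D1:**
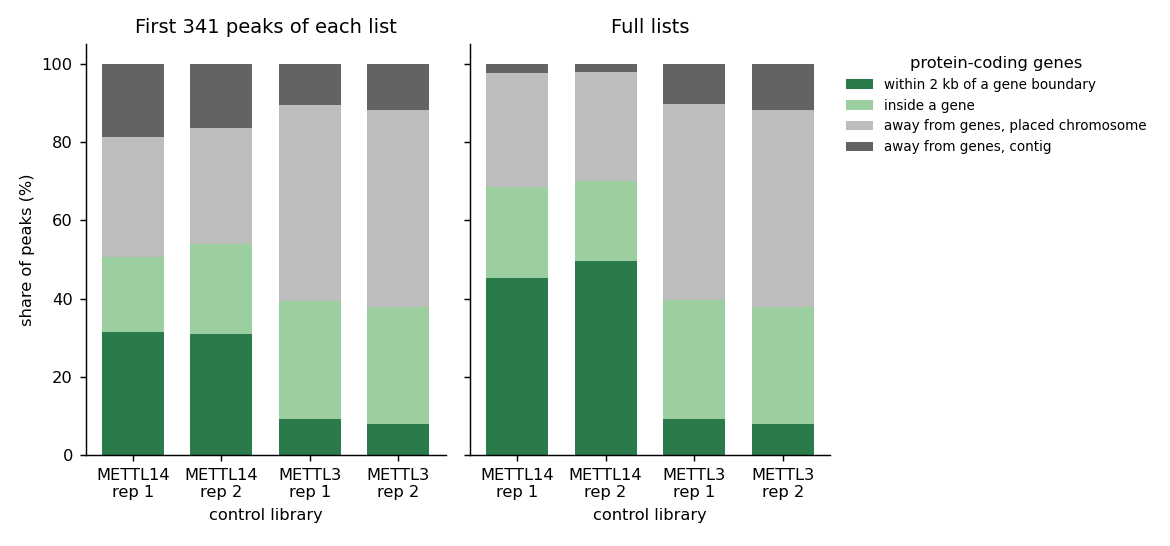
Share of peaks (%) in each location class for the 4 control libraries, at equal length on the left and with full lists on the right. Boundary peaks make up 31.4% and 31.1% of the METTL14 bars at equal length and 45.3% and 49.5% with full lists, against at most 9.38% in any METTL3 bar.

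With full lists the boundary share was 45.3% (1417 of 3129) and 49.5% (1756 of 3546) for METTL14, and 9.35% (33 of 353) and 7.92% for METTL3. The difference grew to 38.8 points, and that of start sites to 33.9 points, with 35.8% and 40.0% of METTL14 peaks at a start site. The share away from genes fell to 31.4% and 29.9% for METTL14 and was 60.3% and 62.2% for METTL3. Contigs then held 2.33% and 2.17% of METTL14 peaks, below METTL3 rather than above it. Most METTL14 contig peaks stood among the first 341 (64 of 73 and 56 of 77).

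The antibody difference was tested further over all 8 libraries, in lists of 242 peaks, the shortest of the 8. The mean boundary share was 22.3% ± 2.76 (SD, n = 4) for METTL14 and 8.57% ± 1.60 (SD, n = 4) for METTL3. All 4 METTL14 libraries (19.4 to 26.0%) were above all 4 METTL3 libraries (7.02 to 10.3%). The exact permutation p was 0.0286, the smallest that 4 against 4 libraries allow, and 0.0400 when adjusted over 7 location classes. The start-site share differed by 12.3 points with the same p. METTL14 minus METTL3 was -6.20 points for the share inside genes and -7.54 points for that away from genes (58.4% ± 1.70 against 65.9% ± 2.99, SD, n = 4 each, exact permutation p = 0.0286, adjusted 0.0400). Gene ends alone did not pass (4.24% against 3.00%, exact permutation p = 0.0857). On chromosomes 1 to 19 and X alone the boundary difference was 23.5 points and the difference away from genes -15.9 points, and with peaks joined into loci at 10 kb they were 21.6 and -12.9 points. This test includes the CKO cells, and the line still changes with the antibody. Each group of 4 is 2 control and 2 CKO libraries of 1 line, which the permutation did not take into account.

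The difference depended on how far down the lists it was read. Among the first 100 peaks the boundary share was 8% and 7% for METTL14 and 5% and 6% for METTL3, only 2.00 points apart on average. Among the first 200 it was 15.0% and 13.5% against 7.50% and 9%, or 6.00 points. The share away from genes differed by -7.50 points in the first 100 and by -3.25 in the first 200. In the METTL14 lists the boundary share was highest in the stretch from position 683 to 1023, at 61.0% and 64.2%. The boundary share then fell to 26.7% in the last 60 peaks of replicate 1 and 31.6% in the last 136 of replicate 2. In stretches of 100, the METTL3 share rose from 5 to 10, 11 and 13.2% in replicate 1. In replicate 2 it was 6, 12, 7 and 4.88%, the last stretch being 53 and 41 peaks long. The METTL3 lists end at 353 and 341 peaks, so they cannot show what their share would be at later positions.

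**Figure D2:**
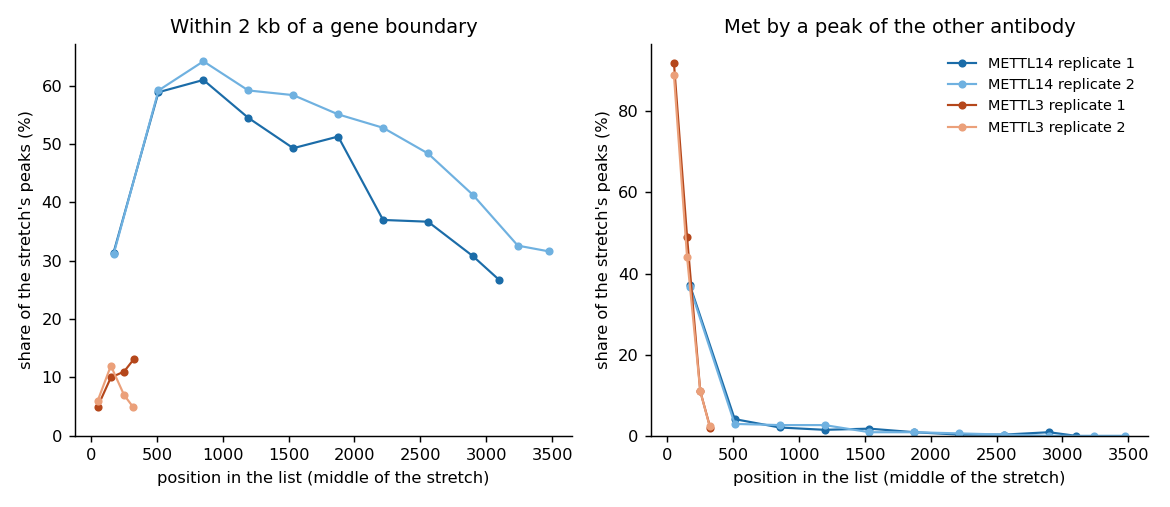
Share of peaks (%) at a gene boundary (left) and share met by a peak of the other antibody (right) against position in the list, in stretches of 341 peaks for METTL14 and 100 for METTL3, with lines for the 4 control libraries. The METTL14 boundary share reaches 61.0% and 64.2% in the stretch from position 683, while overlap with METTL3 drops from 37.2% and 36.7% in the first stretch to 4.11% and 2.93% in the next.

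The antibodies met mainly at the top of the lists, and there mostly away from genes. At equal length 31.1 to 33.1% of METTL3 peaks were met by a METTL14 peak, with a mean of 32.2% over the 4 pairs of libraries. That was close to the 35.5% (121 of 341) by which the METTL3 libraries met each other. The METTL14 libraries met each other at 60.7% (207 of 341). The Jaccard index (shared sites over all sites of a pair) was 0.436 within METTL14, 0.216 within METTL3 and 0.184 to 0.199 between antibodies. The mean within antibodies exceeded the mean between them by 0.134 (exact permutation p = 0.333, the smallest over 3 ways to pair 4 libraries). Leaving out 1 METTL14 library brings this difference to 0.0263 or 0.0213, and leaving out 1 METTL3 library to 0.249 or 0.239, so it rests on the METTL14 pair.

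**Figure D3:**
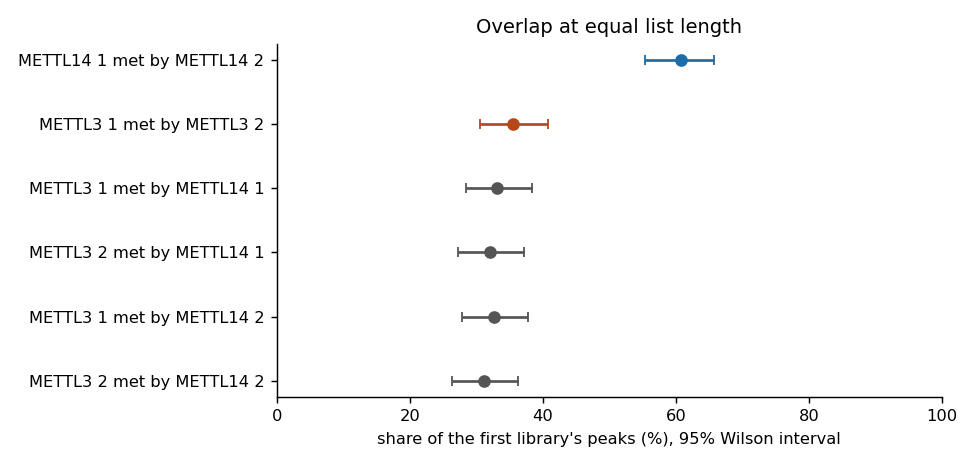
Share of 1 library's first 341 peaks (%) met by a peak of another library, with 95% Wilson intervals (bars) that cover counting error only. The METTL14 pair stands at 60.7%, and the METTL3 pair at 35.5%, whose interval of 30.6 to 40.7% holds the 4 values between antibodies.

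Of the first 100 METTL3 peaks, 92 and 89 were met by a METTL14 peak of either control list. In the next 100 it was 49 and 44, in the 100 after that 11 in each library, and beyond that 1 in each. Agreement between the METTL3 libraries themselves followed the same course: 86 and 84, 29 and 31, 5 and 6, and then 1 and 0. Few METTL3 peaks beyond position 200 were thus called in a second library.

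METTL14 peaks that METTL3 met and those it did not differed in location. Of the first 341 METTL14 peaks, 127 and 125 were met by a METTL3 control peak. Among these 5.51% (7 of 127, 95% Wilson interval 2.70 to 10.9) and 5.60% (7 of 125, 2.74 to 11.1) were at a boundary. Among those not met it was 46.7% (100 of 214, 40.2 to 53.4) and 45.8% (99 of 216, 39.3 to 52.5). The intervals treat peaks as independent, yet those not met fell into only 106 and 109 loci joined at 10 kb. Without the peaks met by the other antibody, an alternative chosen after seeing the data, the lists had 196 peaks each, and the boundary difference was 35.5 points and the difference away from genes -23.0 points. The shared peaks also stood earlier, at a median position of 93 and 87 against 222 and 226. Contigs held 28.3% and 27.2% of the shared METTL14 peaks, against 13.1% and 10.2% of those not met. The first 4 Mb of chromosome 9 held 12.6% and 12.8%, against 2.34% and 1.39%. METTL3 peaks not met by METTL14 were at a boundary in 10.1% (19 of 188) and 8.16% (16 of 196) of cases.

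Merging overlapping peaks of the 4 shortened lists gave 892 sites. All 4 libraries called 92 of them, both METTL14 libraries and no METTL3 library 98, and both METTL3 libraries and no METTL14 library 18. Of the 92 shared sites 5.43% were at a boundary and 75% away from genes. Of the 98 METTL14 sites 35.7% were at a boundary (95% Wilson interval 26.9 to 45.6). Of the 18 METTL3 sites 2 were. Set against the full METTL14 lists, METTL3 had 10 sites of its own. The full METTL3 lists are hardly longer than the shortened ones, so the 98 METTL14 sites had no comparable check.

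The 5 shared sites that stood highest by mean position over the 4 lists are given here. No nonspecific antibody was analysed, so whether both proteins bind at sites called in all 4 lists was not tested. A site at chr2:98666962-98667246 was first in all 4 lists and lies 1035290 bp from the nearest protein-coding boundary. A site at chr6:103649082-103649366, inside Chl1, a neural cell adhesion gene, was at position 3 in all 4. The site at chr9:35305305-35305589, in the long noncoding RNA gene Gm33838, was at positions 5, 5, 2 and 2. Next came chr14:19415734-19416018 at positions 7, 7, 5 and 5 and chr12:3109842-3110137 at 9, 8, 7 and 7, both over 100 kb from a protein-coding boundary.

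Many sites of 1 antibody lay beside peaks of the other. The highest METTL14 sites that no METTL3 peak touched were 3 on chromosome 2 (chr2:98662267-98662415, chr2:98662605-98662753 and chr2:98665037-98665185), at positions 2, 4 and 6 of both lists, within 1777 to 4547 bp of a METTL3 peak. The next were chr14:19417815-19417964 and chr17:39847582-39847735, 283 and 4 bp from one, the latter in the pseudogene Rn18s-rs5. Of the 98 METTL14 sites, 35 had a METTL3 peak within 10 kb and 63 had none. Of these 63, 31 were at a protein-coding boundary and 21 were in or within 2 kb of a Hox gene. Of the 10 METTL3 sites, 7 had a METTL14 peak within 10 kb. The 3 without one were chr9:3258724-3259008, chrX:169994352-169994817 and chr8:105406514-105406986, and none was at a boundary. This distance was looked at after the sites were seen.

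Among the first 341 peaks, those of METTL14 were clustered and those of METTL3 scattered. With peaks less than 10 kb apart joined, the first 341 METTL14 peaks fell into 156 and 158 loci and the METTL3 peaks into 267 and 268. Loci of a single peak numbered 117 and 116 for METTL14 and 244 and 247 for METTL3. The locus with the most peaks was the same for both antibodies, an unplaced contig with 46 METTL14 peaks in each library and 33 METTL3 peaks in each. The start of the assembled chromosome 9 came next, with 21 and 19 METTL14 peaks and 15 and 16 METTL3 peaks. A locus beside Tmem267, a transmembrane protein gene, had 13 and 14 METTL14 peaks, and in METTL3 replicate 1 it had 4. Among the other large METTL14 loci, Hoxd with Evx2 had 17 and 13 peaks and the Hoxa cluster 10 and 11. No METTL3 peak lay at a Hox boundary.

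A gene counts as marked when a peak lies within 2 kb of either of its ends. At equal length METTL14 marked 92 and 84 of 21900 protein-coding genes (0.420% and 0.384%), 57 of them in both libraries (0.260%). METTL3 marked 40 and 32 (0.183% and 0.146%), with 13 in both (0.0594%). With full lists METTL14 marked 1558 and 1918 genes (7.11% and 8.76%), 909 in both (4.15%), while METTL3 stayed at 40 and 32 (0.183% and 0.146%) and at 13 in both (0.0594%).

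The genes that both METTL3 libraries marked were few and were mostly shared. Of the 13, 6 are protein genes of the mitochondrial genome: CYTB, ND1, ND2, ND5, ND6 and COX1, subunits of the respiratory chain. These 6 are not separate hits, since neighbouring genes shared peaks. In both METTL3 lists CYTB, ND5 and ND6 were marked by the peak at position 4. The peak at position 18 marked ND1, ND2 and COX1. The other 7 are Lars2, the mitochondrial leucyl-tRNA synthetase, Brox, Elobl, Zfp978, Gm51877, 4931408C20Rik and LOC100504180. Both METTL14 libraries marked 9 of the 13 at equal length and 12 with full lists, the exception being COX1. The peak near CYTB stood at position 14 in both METTL14 lists and at position 4 in both METTL3 lists. Peaks near the end of Lars2 stood at 35 and 36 against 28 and 35. A further 46 genes were marked in 1 METTL3 library alone, and 31 of these had no METTL14 peak in either full list.

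The mitochondrial genome is the single list of 20 in which METTL3 did not stay at 0 or 1 marked member. Of its 13 members METTL14 marked 9 and 5 and METTL3 marked 6 and 9, so the groups overlapped. Mitochondrial DNA held 6 and 5 of the first 341 METTL14 peaks and 3 and 4 of the METTL3 peaks.

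Of the 57 genes that METTL14 marked in both libraries at equal length, 32 were developmental regulators, 5 belonged to the mitochondrial genome and 20 to neither. No METTL3 library marked 46 of the 57. The developmental regulators are 280 genes in 4 lists: Hox genes, other homeobox genes, other developmental transcription factors and signalling ligands. METTL14 marked 39 and 42 of them, METTL3 0 and 0, a difference of 40.5 genes (exact permutation p = 0.333, the smallest possible). The share marked in both METTL14 libraries was 11.4%, against 0.260% of all protein-coding genes. METTL3 marked only 0.183% and 0.146% of all protein-coding genes. At that share few or none of 280 genes would be marked, so the METTL3 counts of 0 and 0 do not show that it avoids them. Without the Hox genes the difference was 18.5 genes, an alternative chosen after seeing the data. Within the first 100 peaks neither antibody had a peak within 2 kb of the outer ends of one of these genes. Marking is measured to the outer ends of the annotated gene, so it leaves out the METTL14 peak over the Hoxd10 start window, at positions 99 and 94, which lies inside the gene span and 3390 bp from an end. Within the first 200 METTL14 marked 11 and 14 of them and METTL3 none.

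The Hox genes set the position of cells along the body axis. METTL14 marked 21 and 23 of 39 at equal length and METTL3 none. Both METTL14 libraries marked 21 (53.8%, against 0.260% of all protein-coding genes). For METTL3, with 0.183% and 0.146% of all protein-coding genes marked, a list of 39 would hold about none. The 21 were 9 of 11 Hoxa genes, 5 of 10 Hoxb, 2 of 9 Hoxc and 5 of 9 Hoxd. By peaks within 2 kb of a gene's outer ends, Hoxd10 stood highest at positions 169 and 141. Its higher peak at 99 and 94, over an internal start site, is not counted by this measure. The peak that marked it is the one over the Hoxd11 start window shown above, since genes of a cluster lie close together or overlap. Hoxa7 followed at 190 and 139, Hoxa10 at 187 and 155, Hoxd11 at 198 and 145, Hoxa9 at 185 and 181 and Hoxd12 at 194 and 186. All 6 stood near the middle of the shortened lists. With full lists METTL14 marked 27 and 31, 25 in both (64.1%, against 4.15% of all protein-coding genes), and METTL3 none. The 6 that neither METTL14 list marked were Hoxa2, Hoxb13, Hoxc4, Hoxc12, Hoxd1 and Hoxd3.

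Of 79 other homeobox genes METTL14 marked 13 in each library at equal length, 9 in both (11.4%, against 0.260% of all protein-coding genes). METTL3 marked none, near its 0.183% and 0.146% of all protein-coding genes. Otx2, needed for the forebrain, stood highest at positions 172 and 125, with 4 and 3 peaks near its ends in the full lists. Nkx6-1, a factor of the ventral neural tube and the beta cell, followed at 192 and 174. Pou3f3 stood at 214 and 194, Nkx2-1, of the thyroid, lung and forebrain, at 240 and 251, and Otx1 at 297 and 215. Isl1, Lhx8 and Meis1 were also marked in both. With full lists METTL14 marked 37 and 44 of the 79, 32 in both (40.5%, against 4.15% of all protein-coding genes).

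Of 97 other developmental transcription factors METTL14 marked 5 and 6 at equal length and 2 in both (2.06%, against 0.260% of all protein-coding genes). These were Pax7, of neural crest and muscle stem cells, at positions 205 and 227, and Tfap2b, an AP-2 factor of neural crest and kidney, at 209 and 273. With full lists it was 33 and 37, with 26 in both (26.8%, against 4.15% of all protein-coding genes). Among the 26 were Foxa1, an endoderm pioneer factor, and Gata6, of primitive endoderm. The 65 signalling ligand genes were different, with none marked at equal length and 5 in each library with full lists. Only Fgf9 and Wnt6 were marked in both, so 3.08% of ligands were marked against 4.15% of all protein-coding genes. METTL3 marked no member of either list, near its 0.183% and 0.146% of all protein-coding genes.

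**Figure D4:**
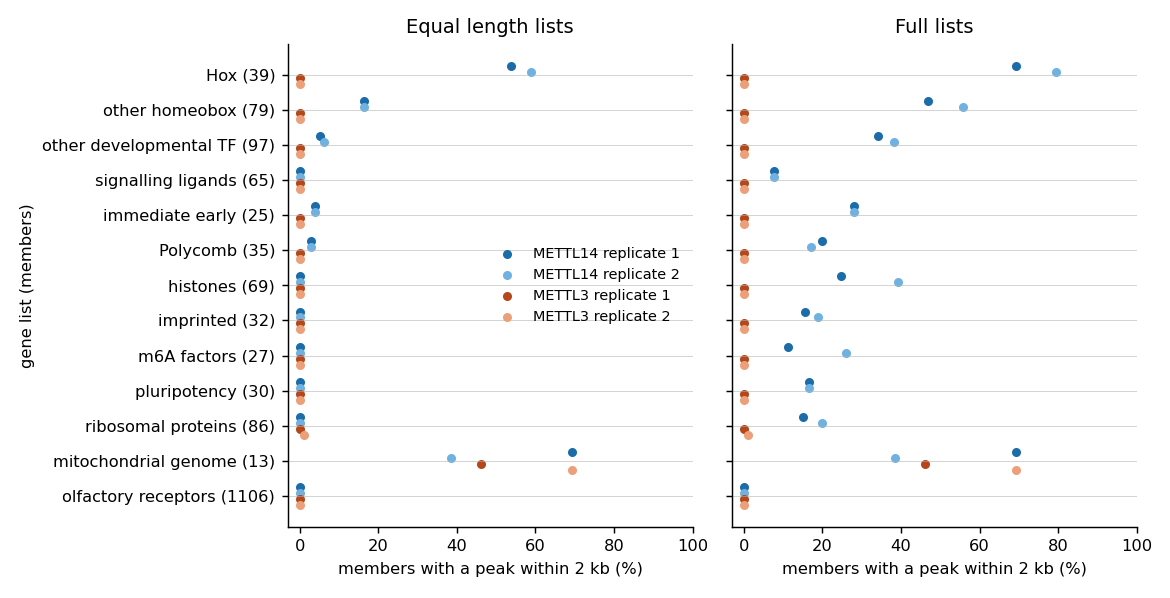
Members of each gene list with a peak within 2 kb of a gene end (% of the list, list size in brackets) in the 4 control libraries, at equal length and with full lists. METTL14 reaches 21 and 23 of 39 Hox genes at equal length while METTL3, with 0.183% and 0.146% of all protein-coding genes marked, is at 0. The mitochondrial genome is where the 2 antibodies overlap.

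Outside development few listed genes were marked at equal length. Cbx8, a Polycomb subunit, stood at positions 257 and 250 of the METTL14 lists. Egr1, an immediate early transcription factor, stood at 249 and 233. No gene of the m6A machinery, histones, splicing factors, imprinted genes or pluripotency factors was marked by either antibody at equal length. With 0.260% of all protein-coding genes marked by METTL14 and 0.0594% by METTL3 in both libraries, lists of this size would hold about none at the background share. Neither Mettl3 (chr14:52294841-52308741) nor Mettl14 (chr3:123368295-123385990) had a peak within 2 kb of an end in any control list. METTL3 marked Rps15a, Orc6 and Duxf3 in 1 library each, and of these Orc6, a subunit of the origin recognition complex, was also marked in both full METTL14 lists.

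With full lists METTL14 added members of many lists, which are read against its 4.15% of all protein-coding genes. Marked in both libraries were 5 of 25 immediate early genes (20.0%), which were Egr1, Fos, Fosb, Jund and Nr4a3, 11 of 69 histone genes (15.9%) and 5 of 32 imprinted genes (15.6%). Polycomb genes had 4 of 35 (11.4%), which were Cbx8, Bmi1, Phc1 and Phf1, and m6A factors 3 of 27 (11.1%), which were Hnrnpa2b1, Igf2bp3 and Prrc2a. Ribosomal protein genes had 8 of 86 (9.30%), cell cycle genes 4 of 44 (9.09%), splicing factors 4 of 49 (8.16%) and nuclear genes of mitochondrial function 12 of 164 (7.32%). Pluripotency factors had 2 of 30 (6.67%), Gbx2 and Tdgf1. Histone genes lie close together, so 1 peak can mark several of them. The 5 imprinted genes were Peg10, Sgce, Peg3, Usp29 and Rasgrf1. Of these, Peg10 and Sgce shared a peak, and so did Peg3 and Usp29.

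Lists for other cell types gave counts of the same kind. Of 16 neural markers 1 was marked in both METTL14 libraries at equal length, Otx2, and 5 with full lists (31.2%), all of them transcription factors also on the developmental lists. Of 15 fibroblast markers and 21 2-cell stage genes none was, in lists so short that the 4.15% of all protein-coding genes gives about 1 member or none. None of 1106 olfactory receptor genes was marked in any control library, and 1 of 353 vomeronasal receptor genes was in each full METTL14 list. Peaks are not expression, and these counts do not check the cell type.

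Of the 909 genes marked in both full METTL14 lists, 85 were developmental regulators and 824 were not, and 884 were marked in no METTL3 library. The 85 are 30.4% of the 280 developmental regulators, against 4.15% of all protein-coding genes. Most developmental regulators were marked in the first 3 stretches of the METTL14 lists. Stretches of 341 peaks marked 39, 38, 20, 9 and 1 of them in order in replicate 1 and 42, 43, 24, 17 and 6 in replicate 2. The number of genes marked of any kind rose meanwhile, from 92 to 210 and 249 in the first 3 stretches of replicate 1 and from 84 to 228 and 253 in replicate 2.

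METTL14 peaks gathered close to start sites. With full lists 1115 and 1413 had their centre within 2 kb of a protein-coding start. Of these 78.1% and 81.0% were within 500 bp, with a median of -106 bp and -116 bp on the gene's strand. At equal length the 79 and 78 such peaks were spread wider, with 51.9% and 61.5% within 500 bp and a median of 85 and 65 bp downstream. METTL3 had 14 and 11 such peaks in all, 5 and 2 of them within 500 bp, too few for a profile.

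**Figure D5:**
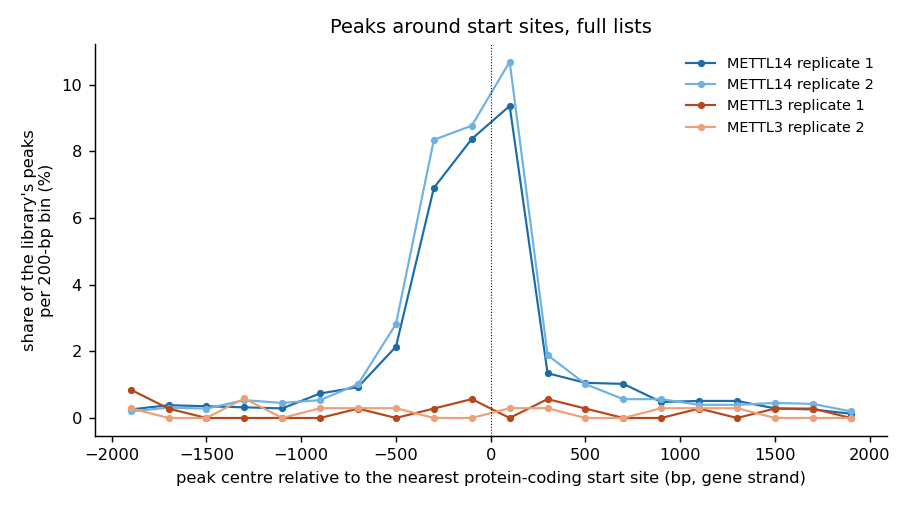
Share of each control library's full list (%) per 200-bp bin of the distance from the peak centre to the nearest protein-coding start site, with negative values upstream. The METTL14 lines peak within 500 bp of the start, where 78.1% and 81.0% of their peaks in this window lie, and the METTL3 lines rest on 14 and 11 peaks.

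Start windows of marked genes were richer in CpG than most. Genes marked in both full METTL14 lists had a median of 22 CpGs per window (677 genes with a window) and 61.7% G and C, against 13 and 56.3% over all. The developmental regulators among them had a median of 17 (53 genes), near the 18 of all 190 such genes with a window. Other marked genes had 22 (624 genes). At equal length the median was 18 (63 genes) and 17.5 (58 genes) in the single METTL14 libraries and 21 (16 genes) and 19 (12 genes) in the single METTL3 libraries. For genes marked in both libraries it was 15 (39 genes) for METTL14 and 0 (3 genes) for METTL3, so the order of the antibodies differed between these sets.

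METTL3 peaks were concentrated on chromosome 8, and METTL14 peaks were not. Chromosome 8 held 60 and 69 of the first 341 METTL3 peaks (17.6% and 20.2%) and 3 of the first 341 in each METTL14 library (0.880%). The chromosome carries 4.76% of protein-coding genes, so at equal length METTL3 was above that share and METTL14 below it. With full lists METTL14 had 4.86% and 4.96% there, near the gene share. The next chromosome in the METTL3 lists, chromosome 9, held 8.21% and 7.92%. Of the 60 and 69 peaks 5 in each library were met by the other METTL3 library, and 5 and 7 by a METTL14 peak. In each library 41 of them stood after position 200 and 1 among the first 100. They fell into 57 and 65 loci, and 3 and 6 were at a gene boundary. Over the 8 libraries at equal length the share was 13% ± 3.03 for METTL3 and 0.310% ± 0.207 for METTL14 (SD, n = 4 each). Without chromosome 8, an alternative chosen after seeing the data, the boundary difference at equal length was 14.7 points in place of 22.6, in shorter lists.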

How the data were processed

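Members, gene lists and comparisons were chosen with earlier results of these data known. Per the submitters' processing notes the tools were HOMER, SAMtools, Bowtie2 (2.4.1), Trimmomatic (0.38) and CASAVA, whose roles are not stated, and coordinates are mm10. Not given in the sources used here are the depth of sequencing, the threshold for a peak and the background. Each library has its own deposited peak list, and the deposited score was 1 for every peak, so positions alone were used. Neither a nonspecific antibody nor cells without the antibody's own target were analysed here.

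Gene ends were taken from RefSeq's gene table of GRCm38.p6 (21900 protein-coding genes), and start sites and strand from its promoter table (17492 genes; none on chromosome 18). The gene table gives no exons or UTRs, so exonic and intronic peaks were not told apart. Peaks overlapped when they shared 1 bp. Libraries, not peaks, were the replicates. Differences were tested by exact two-sided permutation of library labels, with Benjamini-Hochberg adjustment over 7 location classes. Shares have 95% Wilson intervals. The functions were tested on simulated peaks and against brute force. Python 3.11.15, NumPy 2.4.6, SciPy 1.17.1 and Matplotlib 3.10.9 were used. In the metadata replicate numbers are shared across groups, but nothing says that a number marks a shared batch, so no block was used. Calls over 5976 merged sites gave a correlation of 0.00129 between the replicate differences of the antibodies. Most of these sites were called with only 1 antibody, which holds the value near 0, so it cannot show or exclude a shared batch.

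Named genes were, per gene list, up to 6 members marked in both METTL14 libraries at equal length (with full lists, up to 3, where fewer than 3 were), the 10 genes highest in the lists for each antibody, and Mettl3 and Mettl14. Named sites were the 5 highest in all 4 libraries and the 5 highest of METTL14 alone. For METTL3 alone they were the 3 sites without a METTL14 peak within 10 kb, chosen after the sites were seen. Further members are named where a whole count is given. Some genes that the rule selects are not reported here. Alternatives were windows of 1 and 5 kb, chromosomes 1 to 19 and X, peak centres, loci joined at 10 kb, start sites alone, all annotated genes, first 200 and 100 peaks, 50% reciprocal overlap, widening by 500 bp, each library left out, and a replicate block.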

Additional observations from a re-analysis of the deposited data

How the results depend on the processing

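Across 119 alternatives of 11 results none reversed, 1 fell to 0 and 12 moved beyond the margin set for a count or an untested value. With 2 libraries against 2 no alternative could reach 0.05, so for those results only the direction was checked, and their sizes varied widely. The replicate block, a mean of same-number pairs, is counted among the 119 alternatives. With 2 libraries per antibody it equals the difference of group means, so its values were fixed in advance and check nothing. It gave 22.6 and 38.8 points for the boundary share (equal length and full lists) and -13.8 and -30.6 points for the share away from genes. For developmental regulators it gave 40.5 genes. The exact sign-flip p was 0.500, the smallest that 2 pairs allow. The 8-library differences kept p = 0.0286 (exact permutation) under every alternative run, with 9.71 to 23.5 points at boundaries and -15.9 to -6.37 away from genes. That p is the smallest possible, so it shows only that the groups stayed apart.

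Sizes depended on list length. With 100 peaks the boundary difference was 2.00 points, with 200 it was 6.00, and 0 more developmental regulators were marked with METTL14 than with METTL3 in the first 100 (exact permutation p = 1.00), counting peaks within 2 kb of a gene's outer ends, which leaves out the METTL14 peak over the Hoxd10 start window at positions 99 and 94. With 200 peaks the difference was 12.5 genes. Leaving out 1 library brought the Jaccard difference of 0.134 to between 0.0213 and 0.249. Without the Hox genes 18.5 remained of the 40.5, and without peaks met by the other antibody the boundary difference was 35.5 points in lists of 196, both chosen after seeing the data. Genes marked in both METTL14 libraries numbered 19 with 200 peaks, 8 with 100 and 909 with full lists, and 84 to 92 in 1 library. For METTL3 they numbered 6 with a 1 kb window, 29 with 5 kb, and 32 to 40 in 1 library. The mean share of METTL3 peaks met by METTL14 was 50.2% in lists of 200, 61.0% in lists of 100, 27.5% with 50% reciprocal overlap and 35.6% with peaks widened by 500 bp, against an SD of 0.876 over the 4 pairs, which share libraries. Fewer peaks, by construction, leave fewer genes to mark. Read depth, peak height and background are unknown, so it was not tested whether a deeper METTL3 library would hold further sites.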
